A study of Mus musculus with 18 samples.

Results

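The genes described here are 8 Kruppel-like factor genes, Klf2, Klf3, Klf4, Klf5, Klf6, Klf9, Klf10 and Klf13, taken by symbol from a count table of 53672 genes measured in 18 RNA-seq libraries of mouse embryonic stem cells (ESCs). All 8 passed the filter on low counts and are among the 18791 genes tested. The study asked how mutations on the surface of the histone deacetylase HDAC1, which change the corepressor complexes it can join, affect gene expression once the cells' own HDAC1 and HDAC2 are gone. The cells were of the E14TG2a line, carried floxed alleles of Hdac1 and Hdac2, and were stably transfected by piggyBac transposition with Flag-tagged HDAC1 of wild-type sequence (HDAC1-WT) or with the E63R or Y48E substitution (HDAC1-E63R, HDAC1-Y48E). Each line was left untreated or given 4-hydroxytamoxifen (OHT, 1 µM, 5 days per the labels), which induces recombination of the floxed alleles, and each of the 6 groups had 3 libraries.

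Every group shared the floxed background, the rescue transgene and growth on gelatin in serum medium with leukemia inhibitory factor (LIF). Untreated cells therefore held endogenous HDAC1 and HDAC2 together with the transgene. The study's methods describe a shorter exposure to OHT followed by further culture, and whether a line is 1 clone or a pool, and which promoter drives the transgene, is not given in the sources used here. The study calls the libraries of a group biological replicates, but neither it nor the labels say whether each came from a separate culture, so the p-values measure the spread between these libraries, whatever it holds.

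Kruppel-like factors are DNA-binding proteins with C2H2 zinc fingers at the carboxyl end that read GC-rich and CACCC elements near gene starts. Klf2, Klf4 and Klf5 belong to the naive pluripotency network of mouse ESCs, where they act in a partly redundant way, with Klf4 lying downstream of LIF and STAT3 signalling. Other family members recruit repressors: Klf3 binds CtBP, while Klf9, Klf10 and Klf13 carry a short motif that contacts SIN3A, a scaffold of an HDAC1 and HDAC2 complex. Klf6 and Klf10 are known as genes that respond quickly to growth factors, stress or TGF-beta.

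The 8 genes lie on 8 chromosomes in the mm10 build (GENCODE M21 annotation). Klf2 lies at chr8:72319033-72321656 on the plus strand, Klf4 at chr4:55527143-55532466 on the minus strand, Klf5 at chr14:99298691-99315036 on the plus strand and Klf6 at chr13:5861482-5870394 on the plus strand. Klf3 lies at chr5:64803388-64832901, Klf9 at chr19:23141226-23168134 (both plus), Klf10 at chr15:38291463-38300706 and Klf13 at chr7:63886351-63938915 (both minus). All are protein-coding. Of the exon bases of Klf3, 3.59% are shared with Gm20033 on the opposite strand, and whether the counting used strand is not given in the sources used here. No other gene had a stretch of at least 150 bases at 95% identity or more with a member's transcripts.

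The 250 bases before the start that RefSeq gives for 4 members are shown, because these members span the outcomes described: Klf2 fell and Klf6 rose most after OHT in the HDAC1-Y48E line, Klf4 differed between the lines already without OHT, and Klf9 passed no test. Sequences are from RefSeq (GRCm38.p6), 5′ to 3′ along the gene's strand, with matches on either strand to GGGCGG (a GC box, the kind of element bound by SP factors), CCACCC (an element bound by Kruppel-like factors) or TTCNNNGAA (the core letters of a STAT site) in capitals.
Klf2 (chr8:72318812-72319061, plus strand): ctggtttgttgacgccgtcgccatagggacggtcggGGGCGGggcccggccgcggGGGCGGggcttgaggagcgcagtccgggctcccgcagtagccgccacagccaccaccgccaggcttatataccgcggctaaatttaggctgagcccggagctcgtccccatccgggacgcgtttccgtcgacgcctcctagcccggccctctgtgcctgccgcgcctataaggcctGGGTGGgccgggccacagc
Klf6 (chr13:5861239-5861488, plus strand): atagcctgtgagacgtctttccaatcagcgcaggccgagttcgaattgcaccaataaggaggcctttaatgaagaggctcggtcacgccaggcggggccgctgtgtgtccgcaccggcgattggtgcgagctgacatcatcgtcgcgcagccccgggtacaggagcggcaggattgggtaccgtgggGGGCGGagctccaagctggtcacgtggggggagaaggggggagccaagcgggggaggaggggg
Klf4 (chr4:55532476-55532725, minus strand): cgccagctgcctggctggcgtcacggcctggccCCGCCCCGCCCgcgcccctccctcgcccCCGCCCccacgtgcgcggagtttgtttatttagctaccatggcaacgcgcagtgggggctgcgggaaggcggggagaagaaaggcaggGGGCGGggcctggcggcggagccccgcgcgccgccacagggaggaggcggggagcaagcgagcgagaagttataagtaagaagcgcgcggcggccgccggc
Klf9 (chr19:23140976-23141225, plus strand): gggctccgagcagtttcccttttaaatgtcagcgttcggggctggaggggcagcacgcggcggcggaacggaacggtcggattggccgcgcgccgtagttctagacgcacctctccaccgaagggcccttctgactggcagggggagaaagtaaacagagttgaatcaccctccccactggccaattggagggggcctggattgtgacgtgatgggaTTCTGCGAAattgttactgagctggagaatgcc

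The Klf2 window held 2 matches to GGGCGG and 1 to CCACCC, the Klf4 window 4 to GGGCGG, the Klf6 window 1 to GGGCGG and the Klf9 window none of these but 1 to TTCNNNGAA. The windows of Klf3 and Klf13 held 6 and 3 matches to GGGCGG and 3 and 1 to CCACCC. In Klf13, 1 match to CCACCC overlapped 1 to GGGCGG. Among 32851 RefSeq windows of the same length, 32.7% held GGGCGG, 28.1% CCACCC and 7.02% TTCNNNGAA. Klf5 and Klf10 had no entry in the sequence table. RefSeq and GENCODE M21 place some starts differently: the last bases of the Klf2, Klf3 and Klf6 windows lie inside the GENCODE gene intervals given above, and so do the CCACCC match of Klf2 and all 3 CCACCC matches of Klf3.

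The libraries held 9019615 to 11454638 counts on genes, so that 3 counts correspond to 0.248 to 0.3427 CPM (counts scaled to a common total of 1000000 per library). The members had between 393 and 3839 counts in each library. Levels are given as CPM after TMM scaling, which adjusts for differences in RNA composition between libraries. ESC markers were present in every group, with all 10 listed markers above 0. Their summed level was 7638 to 8694 CPM in the HDAC1-WT groups. In HDAC1-Y48E it was 5820 to 5956 CPM untreated and 2827 to 2952 CPM after OHT. In HDAC1-E63R it was 5434 to 9074 CPM untreated and 4746 to 5101 CPM after OHT. The deleted genes did not show the deletion at the level of gene counts. These counts cannot separate endogenous from transgene reads of Hdac1, nor a recombined allele from an intact allele of either gene. Hdac1 changed after OHT by -0.24, 0.22 and 0.14 on the log2 scale in the HDAC1-WT, HDAC1-E63R and HDAC1-Y48E lines, and Hdac2 by -0.66, -0.21 and -0.07 (edgeR adjusted p = 0.0125 for Hdac2 in HDAC1-WT and above that in the other 5 tests). In untreated cells Hdac1 was lower than in HDAC1-WT by a log2 difference of -0.96 in HDAC1-E63R and -1.02 in HDAC1-Y48E (adjusted p = 8.82e-08 and 5.6e-08). It was also lower in treated cells, by -0.51 in HDAC1-E63R and -0.64 in HDAC1-Y48E (edgeR adjusted p = 0.000199 and 6.68e-06).

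The third untreated HDAC1-E63R library stood apart from the other two of its group. Its counts differed from theirs with chi-square values of 60.57 and 67.32 per degree of freedom, against 3.367 to 7.429 for all other pairs within groups. Its Klf2 level was the highest of all 18 libraries, its ESC markers summed to 9074 CPM against 5434 and 5944 CPM in the other two, and its primitive endoderm markers summed to 80.64 CPM against 127.4 and 159.9 CPM. Results for HDAC1-E63R are therefore given with and without this library.

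**Figure D1:**
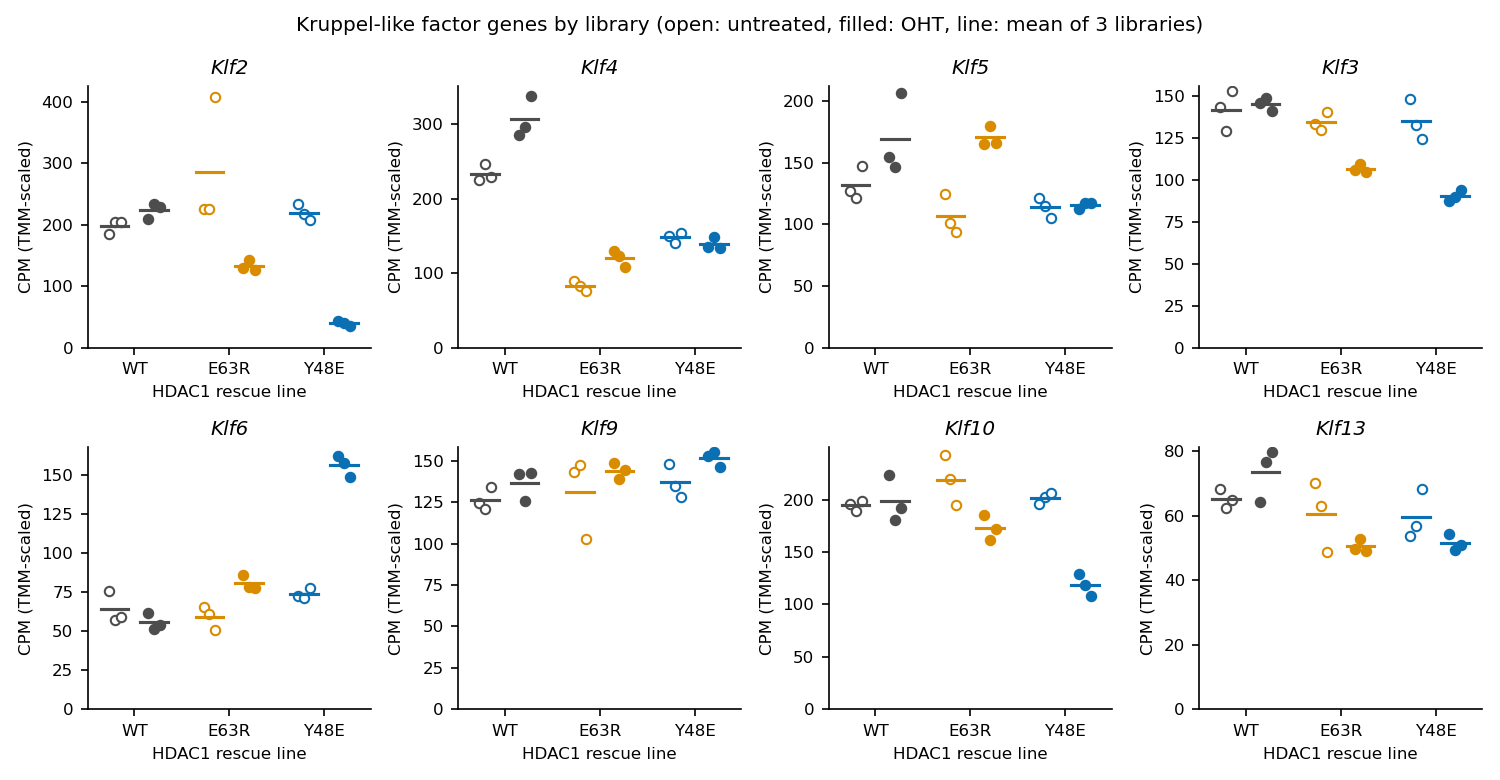
Levels of the 8 Kruppel-like factor genes in every library, in TMM-scaled CPM on the y axis, by rescue line on the x axis, with open circles for untreated and filled circles for OHT-treated libraries and a line at the mean of 3. Klf2 in the OHT-treated HDAC1-Y48E libraries lies between 35.31 and 43.3 CPM, below every other library, while Klf6 in the same libraries lies between 148.6 and 161.9 CPM, above every other library.

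In the HDAC1-WT line none of the 8 members passed an adjusted p of 0.01 after OHT in the edgeR quasi-likelihood test (0.0585% of all tested genes did), although 2 members, Klf4 and Klf5, had an unadjusted p under 0.05. DESeq2 called 1 member, Klf4. In the HDAC1-E63R line 3 members rose (Klf4, Klf5 and Klf6) and 1 fell (Klf2), against 14.3% of all genes called in either direction. In the HDAC1-Y48E line 1 member rose (Klf6) and 3 fell (Klf2, Klf3 and Klf10), against 30.9% of all genes. With a change of more than 2-fold required in addition, as for the study's differentially expressed genes (DEGs), no member remained in HDAC1-WT (background 0.0532%), Klf2 remained in HDAC1-E63R (background 5.91%), and Klf2 and Klf6 remained in HDAC1-Y48E (background 16.6%). The median log2 change of the 8 members was 0.14, -0.07 and -0.15 in the 3 lines, beside 0, 0.03 and 0.05 over all tested genes. The median absolute log2 change was 0.18, 0.40 and 0.40 for the members, beside 0.19, 0.40 and 0.56 for all genes. In bulk RNA, fewer cells that express a gene and less RNA per cell cannot be told apart.

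The HDAC1-E63R counts depend on the estimate of the spread and on the library named above. When the test used only the 6 HDAC1-E63R libraries, none of the 4 members passed (adjusted p = 0.0218 for Klf2, 0.0389 for Klf4, 0.0231 for Klf5 and 0.0834 for Klf6). Without the third untreated library, 6 members passed: Klf4 and Klf5 rose, while Klf2, Klf3, Klf10 and Klf13 fell, and Klf6 had a log2 change of 0.35 with an adjusted p of 0.0104.

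**Figure D2:**
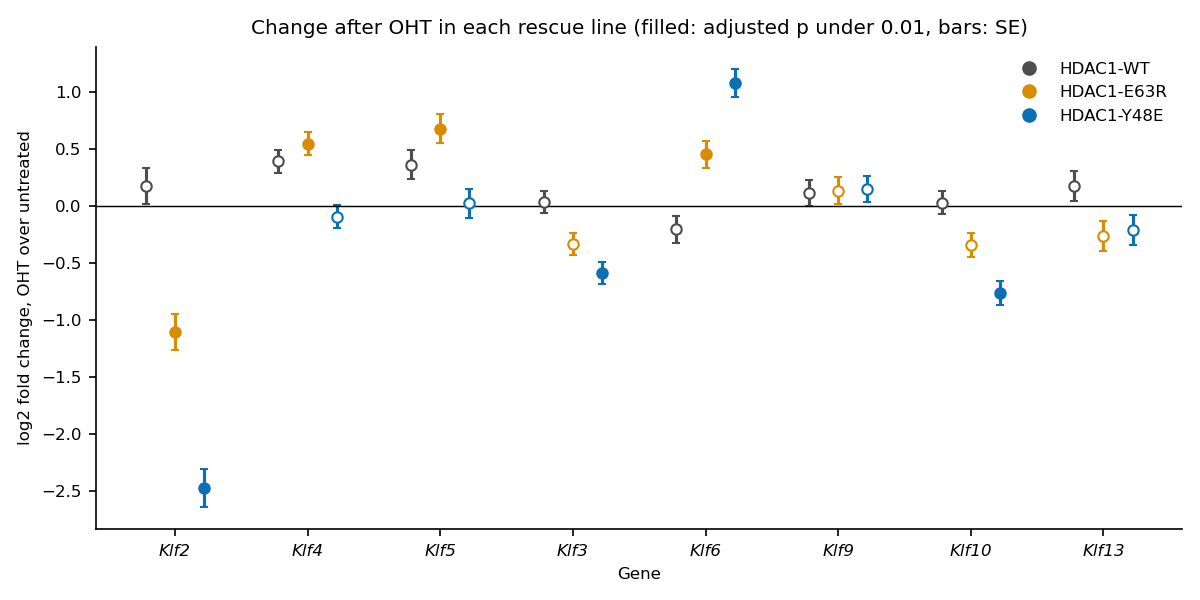
Log2 fold change after OHT (y axis) of each member (x axis) in the 3 rescue lines, from edgeR, with bars of 1 standard error and filled points where the adjusted p was under 0.01. The points of Klf2 fall from 0.18 in HDAC1-WT to -1.11 in HDAC1-E63R and -2.47 in HDAC1-Y48E, and those of Klf6 run from -0.21 to 0.45 and 1.08.

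Among the pluripotency members, Klf2 had the largest change in both mutant lines, though not in HDAC1-WT. In HDAC1-WT it was at 185.5, 204.5 and 204.8 CPM in untreated libraries and at 210.1, 233.6 and 228.9 CPM after OHT. In HDAC1-E63R it was at 225.3, 226.3 and 407.5 CPM untreated and at 129.7, 142.6 and 126.3 CPM after OHT. In HDAC1-Y48E it was at 233.2, 218.1 and 207.3 CPM untreated and at 43.3, 40.3 and 35.31 CPM after OHT. Treated and untreated libraries did not overlap in any line, with treated libraries slightly higher in HDAC1-WT and lower in both mutants. Overlap is given here and below as a description, without the share of all genes that show none. The log2 fold change was 0.18 ± 0.16 (SE, n = 3 per group) in HDAC1-WT (adjusted p = 0.802), -1.11 ± 0.16 in HDAC1-E63R (adjusted p = 2.82e-05) and -2.47 ± 0.17 in HDAC1-Y48E, a 5.54-fold fall (adjusted p = 1.8e-10, edgeR). Without the third untreated HDAC1-E63R library the change in that line was -0.77 ± 0.08 (adjusted p = 2.64e-10), which is under 2-fold.

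The response of Klf2 differed between all 3 lines when the differences themselves were tested. It was lower than in HDAC1-WT by a log2 difference of -1.285 in HDAC1-E63R (adjusted p = 0.00108) and -2.65 in HDAC1-Y48E (adjusted p = 2.5e-08). With only the 12 libraries of HDAC1-E63R and HDAC1-WT fitted, the HDAC1-E63R difference was -1.29 and missed the limit (adjusted p = 0.0116). The HDAC1-Y48E response was also lower than the HDAC1-E63R response, by -1.36 (adjusted p = 0.000688). Without the third untreated HDAC1-E63R library the differences were -0.95 for HDAC1-E63R against HDAC1-WT (adjusted p = 1.05e-08) and -1.71 for HDAC1-Y48E against HDAC1-E63R (adjusted p = 1.7e-15). Over all genes, 2.45% had a response that differed between HDAC1-E63R and HDAC1-WT, 12.6% between HDAC1-Y48E and HDAC1-WT and 1.95% between the mutants, while among the members the counts were 1, 4 and 1 of 8.

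Klf4, the LIF-dependent member and a reprogramming factor, behaved differently. It stood at 225.5, 246.6 and 229.5 CPM in untreated HDAC1-WT libraries and at 285.5, 296.7 and 338.6 CPM after OHT. In HDAC1-E63R it stood at 89.07, 82.9 and 75.84 CPM untreated and at 130.3, 123.6 and 108.1 CPM after OHT. In HDAC1-Y48E it stood at 150, 141.2 and 153.7 CPM untreated and at 135.2, 148.1 and 133.3 CPM after OHT. The largest separation was between lines: every HDAC1-WT library, with or without OHT, lay above every mutant library, and treated and untreated libraries overlapped only in HDAC1-Y48E. Klf4 rose after OHT in HDAC1-E63R, by 0.55 ± 0.10 on the log2 scale (adjusted p = 0.000469, and 0.49 with an adjusted p of 2.29e-05 without the third untreated library). The change was 0.39 ± 0.10 in HDAC1-WT (adjusted p = 0.112 with edgeR and 0.00802 with DESeq2, and 0.00227 when only the HDAC1-WT libraries were fitted). In HDAC1-Y48E it was -0.09 ± 0.10, with a 95% interval from -0.30 to 0.11 (adjusted p = 0.472), and with libraries scaled to their totals without TMM factors it was 0.11, where the median of all genes was 0.25.

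The Klf4 response in HDAC1-Y48E minus that in HDAC1-E63R was -0.64, with an adjusted p of 0.01 that fell just short of the limit. It was 0.000787 with DESeq2 and 0.000254 with edgeR without the third untreated HDAC1-E63R library. Against HDAC1-WT the HDAC1-Y48E response differed by -0.49 (adjusted p = 0.0162 with edgeR and 0.00643 with DESeq2).

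Klf5, a factor of the early embryo and of epithelial tissues, was at 126.6, 121.7 and 147 CPM in untreated HDAC1-WT libraries and at 154.8, 146.2 and 206.5 CPM after OHT. In HDAC1-E63R it was at 124.5, 101.4 and 93.89 CPM untreated and at 165.5, 180 and 165.7 CPM after OHT. In HDAC1-Y48E it was at 121.2, 115 and 105.2 CPM untreated and at 112.2, 117.4 and 117.1 CPM after OHT. Only in HDAC1-E63R did the groups not overlap, and there Klf5 rose by 0.68 ± 0.13 (adjusted p = 0.000486, and 0.59 with an adjusted p of 1.91e-05 without the third untreated library). The log2 change was 0.36 ± 0.13 in HDAC1-WT (adjusted p = 0.28) and 0.02 ± 0.13 in HDAC1-Y48E, with a 95% interval from -0.24 to 0.29 (adjusted p = 0.907). The difference between the mutant responses was -0.65 with an adjusted p of 0.0349, which became 0.00342 without the third untreated HDAC1-E63R library.

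Per kilobase of exon, Klf2 was the most abundant of the 8 members in 5 of the 6 groups, at 107.4 CPM per kb in untreated HDAC1-WT cells and 71.94 CPM per kb in OHT-treated HDAC1-E63R cells. In OHT-treated HDAC1-Y48E cells it was sixth, at 21.46 CPM per kb, behind Klf4 (45.55), Klf6 (35.52), Klf9 (31.48), Klf10 (28.46) and Klf5 (22.21). Klf13 was the lowest member per kb in every group, between 6.699 and 9.744. The length merges the exons of all annotated transcripts, so this order and the shares below depend on it. By CPM, Klf4 lay above Klf2 in untreated (233.9 against 198.3) and treated HDAC1-WT (306.9 against 224.2). Klf10 lay above Klf2 in treated HDAC1-E63R (172.9 against 132.9), and Klf2 was the lowest member in treated HDAC1-Y48E (39.64). Taking Klf2, Klf4 and Klf5 together, their summed level per kb was 209.4 ± 9.225 (SD, n = 3) in untreated and 254.6 ± 18.9 in OHT-treated HDAC1-WT cells. The sum was 202.6 ± 52.86 and 144.3 ± 8.34 in HDAC1-E63R, where the untreated libraries held 175.1, 169.2 and 263.6, and it was 189.4 ± 8.316 and 89.23 ± 3.813 in HDAC1-Y48E.

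The share of Klf2 in that sum was 51.25% ± 0.63 untreated and 47.77% ± 2.55 after OHT in HDAC1-WT. It was 69.65%, 72.41% and 83.71% in the untreated HDAC1-E63R libraries and 48.51%, 50.68% and 50.39% after OHT. In HDAC1-Y48E it was 62.74% ± 1.18 untreated and 24.03% ± 1.98 after OHT, where Klf4 made up 51.04% and Klf5 24.93%. These shares are given as values, without a test.

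**Figure D3:**
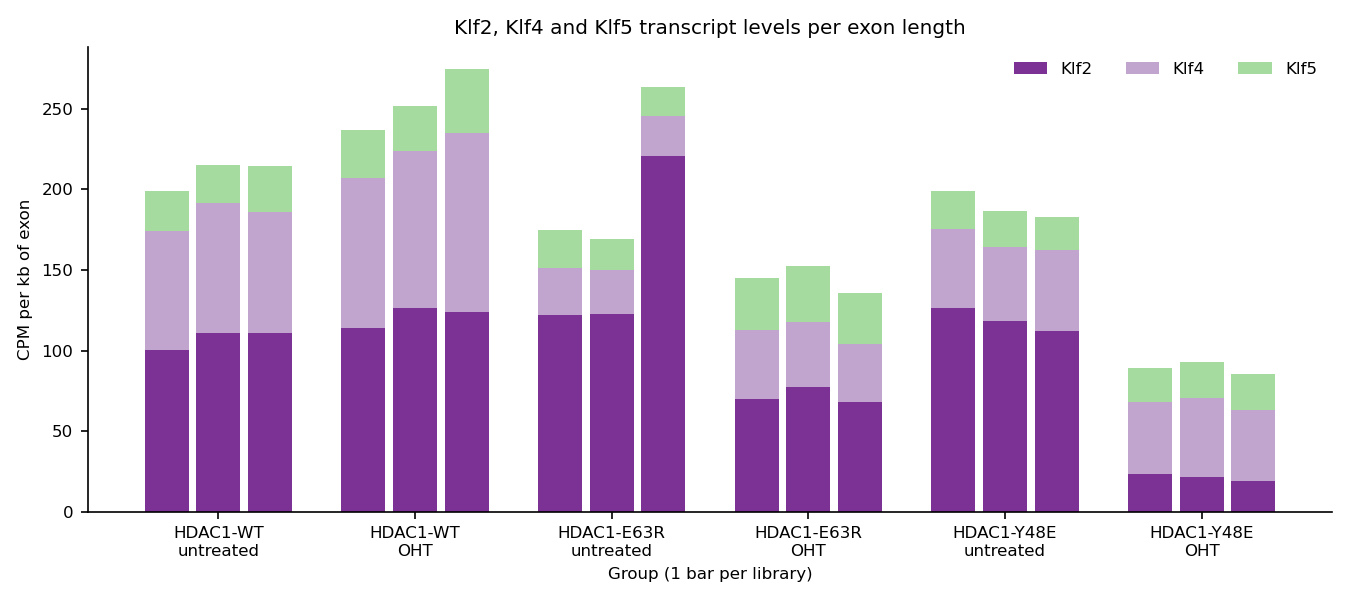
Summed level of Klf2, Klf4 and Klf5 in CPM per kb of exon (y axis, from 0), with 1 bar per library and the 6 groups along the x axis. The Klf2 segment is the largest in every group but OHT-treated HDAC1-Y48E, where it makes up 24.03% of a sum of 89.23, and the tall bar among untreated HDAC1-E63R libraries is the library that stood apart.

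Klf6, an injury- and growth-factor-responsive factor, moved against Klf2. It stood at 75.8, 57.2 and 59.12 CPM in untreated and at 61.26, 51.36 and 53.97 CPM in OHT-treated HDAC1-WT libraries. In HDAC1-E63R it stood at 65.54, 60.68 and 50.37 CPM untreated and at 85.89, 78.21 and 77.37 CPM after OHT. In HDAC1-Y48E it stood at 72.7, 71.18 and 77.54 CPM untreated and at 161.9, 157.4 and 148.6 CPM after OHT. Treated libraries lay above untreated libraries in both mutants and overlapped with them in HDAC1-WT. Klf6 rose 2.11-fold in HDAC1-Y48E (log2 1.08 ± 0.12, adjusted p = 2.82e-07, edgeR) and by 0.45 ± 0.12 on the log2 scale in HDAC1-E63R (adjusted p = 0.00902). The log2 change in HDAC1-WT was -0.21 ± 0.12 (adjusted p = 0.632).

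The HDAC1-Y48E response of Klf6 exceeded that of HDAC1-WT by 1.285 (adjusted p = 1.03e-05). The HDAC1-E63R response was 0.66 above that of HDAC1-WT (adjusted p = 0.0253) and 0.63 below that of HDAC1-Y48E (adjusted p = 0.0331), and neither difference passed with edgeR on all libraries. Both passed with DESeq2 on all libraries (adjusted p = 0.00464 and 0.00328) and with edgeR without the third untreated HDAC1-E63R library (0.55 with an adjusted p of 0.00589, and 0.73 with an adjusted p of 0.000183). The rise within HDAC1-E63R was close to the limit: it was lost in 5 of the 6 fits that left out a library of that line (adjusted p = 0.0104 without untreated replicate 3, 0.0133 without untreated replicate 2, and 0.05, 0.0229 and 0.0203 without OHT replicates 1, 2 and 3), and after thinning to the smallest library (adjusted p = 0.0189).

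Klf10, the TGF-beta inducible early gene, was at 196.1, 189.6 and 198.5 CPM in untreated and 223.4, 180.9 and 192.2 CPM in OHT-treated HDAC1-WT libraries. In HDAC1-E63R the values were 243.2, 219.9 and 195 CPM untreated and 185.3, 161.3 and 172.2 CPM after OHT. In HDAC1-Y48E they were 196.1, 203.1 and 206.7 CPM untreated and 129.5, 119 and 108.3 CPM after OHT. Groups did not overlap in either mutant. Klf10 fell in HDAC1-Y48E by 0.76 ± 0.11 on the log2 scale (adjusted p = 4.84e-06), and this response was lower than in HDAC1-WT by -0.79 (adjusted p = 0.000469). In HDAC1-E63R its change was -0.34 ± 0.10 (adjusted p = 0.0192 with edgeR and 0.004 with DESeq2), and -0.42 with an edgeR adjusted p of 8.34e-05 without the third untreated library. That response differed from the HDAC1-WT response by -0.37 (adjusted p = 0.149), and by -0.45 without that library (adjusted p = 0.00378). The log2 change in HDAC1-WT was 0.03 ± 0.10.

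Klf3, the CtBP-binding repressor, was at 143.2, 129.1 and 152.4 CPM in untreated and 145.7, 148.3 and 140.6 CPM in OHT-treated HDAC1-WT libraries. In HDAC1-E63R it was at 132.9, 129.5 and 140.3 CPM untreated and 105.7, 109.3 and 104.7 CPM after OHT. In HDAC1-Y48E it was at 148, 132.7 and 124.4 CPM untreated and 87, 89.47 and 93.52 CPM after OHT. Treated libraries were lower than untreated libraries without overlap in both mutants. Klf3 fell in HDAC1-Y48E by 0.59 ± 0.10 on the log2 scale (adjusted p = 3.57e-05), lower than in HDAC1-WT by -0.62 (adjusted p = 0.0018), a difference that missed the limit with scaling to library totals (-0.46, adjusted p = 0.0186). In HDAC1-E63R the change was -0.33 ± 0.09 (adjusted p = 0.0128 with edgeR and 0.00144 with DESeq2), and -0.30 with an edgeR adjusted p of 0.00513 without the third untreated library.

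Klf9 and Klf13, the other members with a SIN3A-contacting motif, did not pass in any line in the fit to all libraries. Klf9, a glucocorticoid- and thyroid-hormone-inducible factor, had group means between 126.6 and 151.6 CPM, and its log2 changes were 0.11, 0.13 and 0.15 in HDAC1-WT, HDAC1-E63R and HDAC1-Y48E. The 95% interval in HDAC1-Y48E ran from -0.09 to 0.38. Klf9 passed in none of the 10 comparisons made here. Klf13 had group means between 50.45 and 73.38 CPM and changed by 0.17, -0.27 and -0.21, but in HDAC1-E63R without the third untreated library its change was -0.40 (adjusted p = 0.00524) and differed from that in HDAC1-WT by -0.58 (adjusted p = 0.00652).

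Before OHT, the lines were compared to see which members already differed while endogenous HDAC1 and HDAC2 were present. The labels name 1 line per construct. In all comparisons between lines, the substitution, the origin of the line and its Hdac1 level therefore cannot be told apart. Klf4 was the only member called in either mutant in the fit to all libraries, lower than in HDAC1-WT by a log2 difference of -1.50 ± 0.10 in HDAC1-E63R (82.6 against 233.9 CPM, adjusted p = 7.39e-10) and -0.66 ± 0.10 in HDAC1-Y48E (148.3 against 233.9 CPM, adjusted p = 5.36e-05). Without the third untreated HDAC1-E63R library the first difference was -1.44 (adjusted p = 1.39e-17). The 1 of 8 members called compares with 16.9% of all genes for HDAC1-E63R and 12.2% for HDAC1-Y48E. Klf2 was 0.53 higher in untreated HDAC1-E63R with an adjusted p of 0.0147, and 0.19 higher with an adjusted p of 0.0656 without the third library. It passed with DESeq2 (adjusted p = 0.00727) and without a filter on low counts (adjusted p = 0.000242).

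After OHT, HDAC1-E63R cells differed from HDAC1-WT cells in 5 members, with Klf2, Klf3, Klf4 and Klf13 lower and Klf6 higher (19.3% of all genes were called). HDAC1-Y48E cells differed in 7 members, with Klf6 higher and Klf2, Klf3, Klf4, Klf5, Klf10 and Klf13 lower (31.8% of all genes were called). These comparisons share libraries with those of the OHT responses, so their calls are not independent of them. Klf4 was lower than in OHT-treated HDAC1-WT cells by -1.35 in HDAC1-E63R and -1.14 in HDAC1-Y48E (adjusted p = 1.6e-09 and 6.06e-09). Klf5 was lower in HDAC1-Y48E by -0.55 (adjusted p = 0.00119, 0.0176 without OHT-treated HDAC1-WT replicate 3, and 0.0224 with scaling to library totals), while the difference in HDAC1-E63R was 0.01 (adjusted p = 0.967). Klf13 was lower by -0.54 in HDAC1-E63R and -0.51 in HDAC1-Y48E (adjusted p = 0.00293 and 0.00291). Both Klf13 calls were lost with scaling to library totals (adjusted p = 0.0232 and 0.0528) and without either of OHT-treated HDAC1-WT replicates 2 and 3 (adjusted p between 0.0146 and 0.0198). In HDAC1-E63R the Klf13 call was also lost without OHT replicate 1 or 3 (adjusted p = 0.0153 and 0.0166), and in HDAC1-Y48E without OHT replicate 2 or 3 (adjusted p = 0.0166 and 0.0133). The Klf6 difference in HDAC1-E63R, 0.54 with an adjusted p of 0.00179, was lost without OHT-treated HDAC1-E63R replicate 1 (adjusted p = 0.0134) and without OHT-treated HDAC1-WT replicate 2 or 3 (adjusted p = 0.0151 and 0.01).

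**Figure D4:**
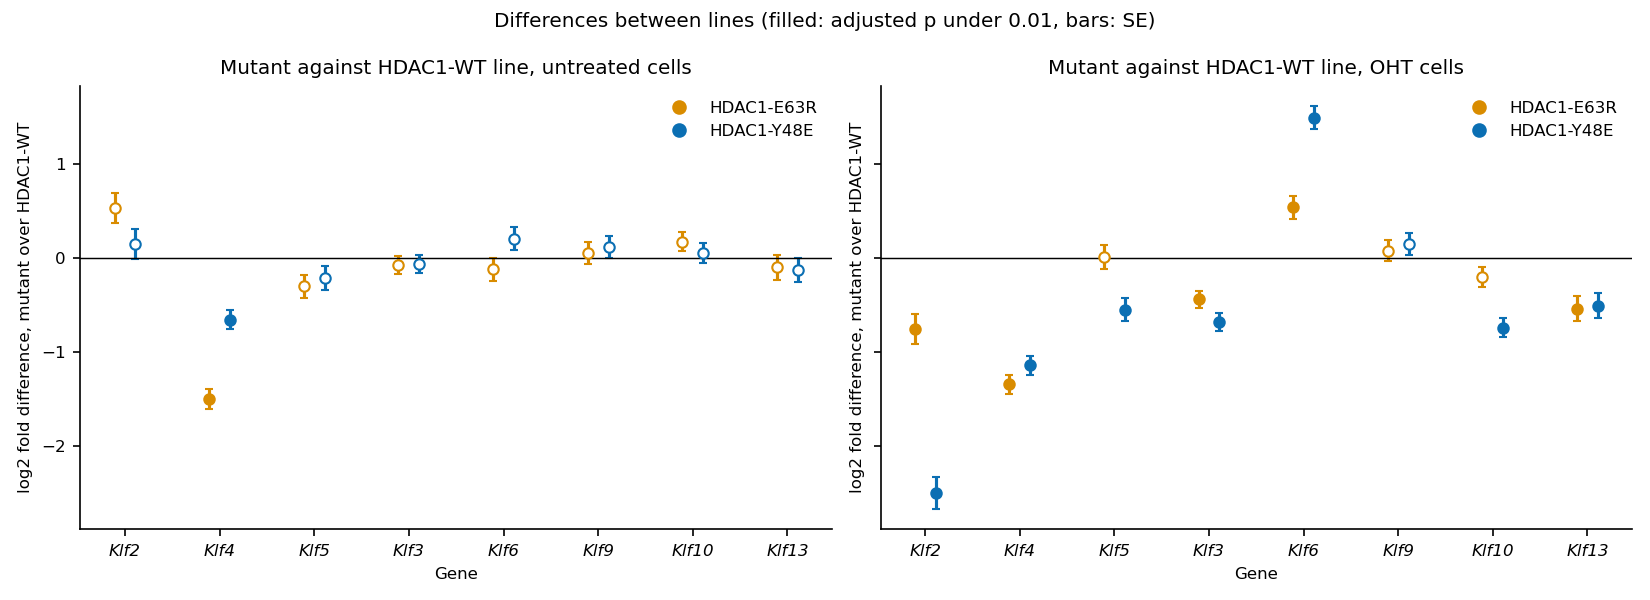
Log2 fold difference of each mutant line from HDAC1-WT (y axis) for each member (x axis), in untreated cells on the left and OHT-treated cells on the right, with bars of 1 standard error and filled points where the edgeR adjusted p was under 0.01. On the left only Klf4 is filled, at -1.50 and -0.66, and on the right Klf2 and Klf6 in HDAC1-Y48E lie farthest from 0, at -2.50 and 1.49.

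Across the 18 libraries the log2 levels of Klf2 and Klf6 had a Pearson correlation of -0.95 (-0.95 without the third untreated HDAC1-E63R library), those of Klf2 and Klf10 of 0.90 and those of Klf2 and Klf3 of 0.89 (0.94 and 0.90 without that library), while Klf2 and Klf4 had 0.09 (0.27 without it). These are descriptions, since the libraries share the 6 groups. Among 16677 genes with at least 1 CPM on average, the genes closest to Klf2 were Upp1, Ndufa4l2 and Gsta4 (0.99, 0.99 and 0.98). Closest to Klf4 was Otx2, a factor of the formative and primed states (0.96), followed by Hspa12a and Ell2 (0.96 each). For Klf6 they were Trim24, Fem1b and Tub (0.96, 0.95 and 0.95), for Klf10 Zfp740, Fiz1 and Frrs1 (0.96 each) and for Klf3 Mpst and Aldh2 (0.97 and 0.96). Klf5, Klf9 and Klf13 had weaker neighbours, led by Lrrc15 (0.90), Arl13b (0.92) and Acvr1b (0.89). The value for Arl13b was 0.83 without the third untreated HDAC1-E63R library.

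The list counts that follow are for the OHT responses, in which 0.0585% of all tested genes were called in HDAC1-WT, 14.3% in HDAC1-E63R and 30.9% in HDAC1-Y48E. Of the 9 other Kruppel-like factor genes listed, 8 had enough counts to be tested, and none passed in HDAC1-WT (edgeR, with 1 at an unadjusted p under 0.05 and none by DESeq2). Klf15, a metabolic regulator that is glucocorticoid-inducible, fell in both mutants, from 59 to 32.62 CPM in HDAC1-E63R (log2 -0.86, adjusted p = 0.000409) and from 69.02 to 16.84 CPM in HDAC1-Y48E (log2 -2.04, adjusted p = 2.23e-09). In HDAC1-WT the Klf15 mean was 30.61 CPM untreated and 24.6 CPM after OHT. Both untreated mutants were thus above HDAC1-WT in mean, and of the treated mutants only HDAC1-Y48E was below it. Klf12, a CtBP-binding repressor like Klf3, rose in HDAC1-Y48E from 4.236 to 11.61 CPM (log2 1.45, adjusted p = 0.000186). Of 7 tested SP genes, whose products bind the GC box, none passed in HDAC1-E63R (edgeR, with 2 at an unadjusted p under 0.05 and 1 by DESeq2) and 3 fell in HDAC1-Y48E: Sp1 by 0.81, Sp2 by 1.08 and Sp3 by 0.59 on the log2 scale. Without the third untreated HDAC1-E63R library, 3 of 8 tested SP genes fell in that line, Sp1 (-0.68), Sp2 (-0.57) and Sp3 (-0.37), where the summed SP level was 311.9 CPM in that library against 513.2 and 568.5 CPM in the other two.

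Of 12 genes for cofactors and turnover of KLF proteins, which include Hdac1 and Hdac2, 2 rose in HDAC1-E63R, Ctbp2 (log2 0.74), a corepressor bound by Klf3, and Fbxw7 (0.54), a ubiquitin ligase subunit. In HDAC1-Y48E 2 rose, Fbxw7 (0.86) and Btrc (0.67), also a ubiquitin ligase subunit. Fbxw7 went from 22.65 to 32.92 CPM in HDAC1-E63R and from 22.01 to 39.91 CPM in HDAC1-Y48E. It stood at 41.39 and 41.44 CPM in untreated and treated HDAC1-WT. Btrc went from 43.61 to 69.35 CPM in HDAC1-Y48E, beside 62.72 and 56.09 CPM in HDAC1-WT. Ctbp2 went from 89.97 to 150 CPM in HDAC1-E63R, beside 69.12 and 78.66 CPM in HDAC1-WT. The count of 2 of 12 lies near the share of all genes called in HDAC1-E63R (14.3%) and below that in HDAC1-Y48E (30.9%). When the third untreated HDAC1-E63R library was left out, Wwp1, a ubiquitin ligase that acts on Klf2 and Klf5, fell as well in that line (-0.30). These 4 genes are named after their values were seen, since they are under 2-fold. Sin3a and Sin3b were among the genes of this list whose OHT response did not pass in either mutant, also without that library. Their mean levels were higher in both mutant lines than in HDAC1-WT, which is given as values without a test. Neither gene is named by the rule for named genes given below. Sin3b stood at 91.85 and 88.48 CPM in untreated and treated HDAC1-WT, 183.3 and 161.7 CPM in HDAC1-E63R and 145.8 and 179.1 CPM in HDAC1-Y48E. Sin3a stood at 142.4 and 165.6, 183.1 and 199.8, and 188.4 and 180.9 CPM in the same order.

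Of 22 genes of naive pluripotency and the LIF pathway, a list that leaves out the 8 members, 7 fell and none rose in HDAC1-E63R, with a median log2 change of -0.20, and 13 fell and 1 rose in HDAC1-Y48E, with a median of -0.88 (medians over all genes 0.03 and 0.05, with 14.3% and 30.9% of all genes called). The falls in HDAC1-Y48E were led by Prdm14 (-3.30), Fgf4 (-3.07), Tcl1 (-2.49) and Nr0b1 (-1.94), and the gene that rose was Dppa3 (1.89), a germ cell and naive state marker named here after its value was seen. In HDAC1-E63R 9 fell and 1 rose without the third untreated library. In HDAC1-WT none passed (edgeR, with 8 at an unadjusted p under 0.05 and none by DESeq2). Before OHT, 6 of the 22 were lower and 3 higher in HDAC1-E63R than in HDAC1-WT (16.9% of all genes were called). In untreated HDAC1-Y48E 6 were lower and 2 higher (12.2% called). Pou5f1, Nanog, Tdgf1 and Dppa5a, from the list of ESC markers, fell in HDAC1-Y48E by 1.52, 1.29, 1.18 and 1.11 on the log2 scale, and this list had 7 of 10 genes lower in HDAC1-Y48E and 3 of 10 in HDAC1-E63R (3 lower and Zfp42 higher without the third untreated library). Nanog, Pou5f1, Sall4, Sox2 and Zfp42 are in both lists.

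Immediate early genes, which like Klf6 and Klf10 are induced quickly by growth factors, moved mainly upward. Of 20 tested, 8 rose in HDAC1-E63R (11 without the third untreated library) and 13 in HDAC1-Y48E, and none fell, with medians of 0.75 and 1.22 (14.3% and 30.9% of all genes were called). Before OHT, 8 of the 20 were lower and 4 higher in HDAC1-E63R than in HDAC1-WT, with a median log2 difference of -0.38 (16.9% of all genes were called). Egr1 rose in HDAC1-E63R from 5.37 to 49.31 CPM (log2 3.19), a level like the 49.39 CPM of untreated HDAC1-WT cells and below the 74.52 CPM of OHT-treated HDAC1-WT cells. Other examples are Ctgf and Cyr61 in HDAC1-Y48E (log2 changes of 2.79 and 2.49). The summed level of the list was 1044 to 1165 and 1160 to 1305 CPM in untreated and treated HDAC1-WT libraries, 884.7 to 1248 and 1295 to 1343 CPM in HDAC1-E63R and 1009 to 1024 and 1892 to 1932 CPM in HDAC1-Y48E. In HDAC1-WT none passed (edgeR, with 5 at an unadjusted p under 0.05 and 1 by DESeq2). Of 14 TGF-beta pathway genes, 3 rose in HDAC1-E63R (3 rose and 2 fell without the third untreated library), and 5 rose and 2 fell in HDAC1-Y48E, beside the same shares of all genes. Among them the ligand gene Tgfb1 rose by 1.28 in HDAC1-E63R and 2.13 in HDAC1-Y48E and the receptor gene Tgfbr2 by 1.70 in HDAC1-Y48E, while Klf10 fell in HDAC1-Y48E as described above.

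**Figure D5:**
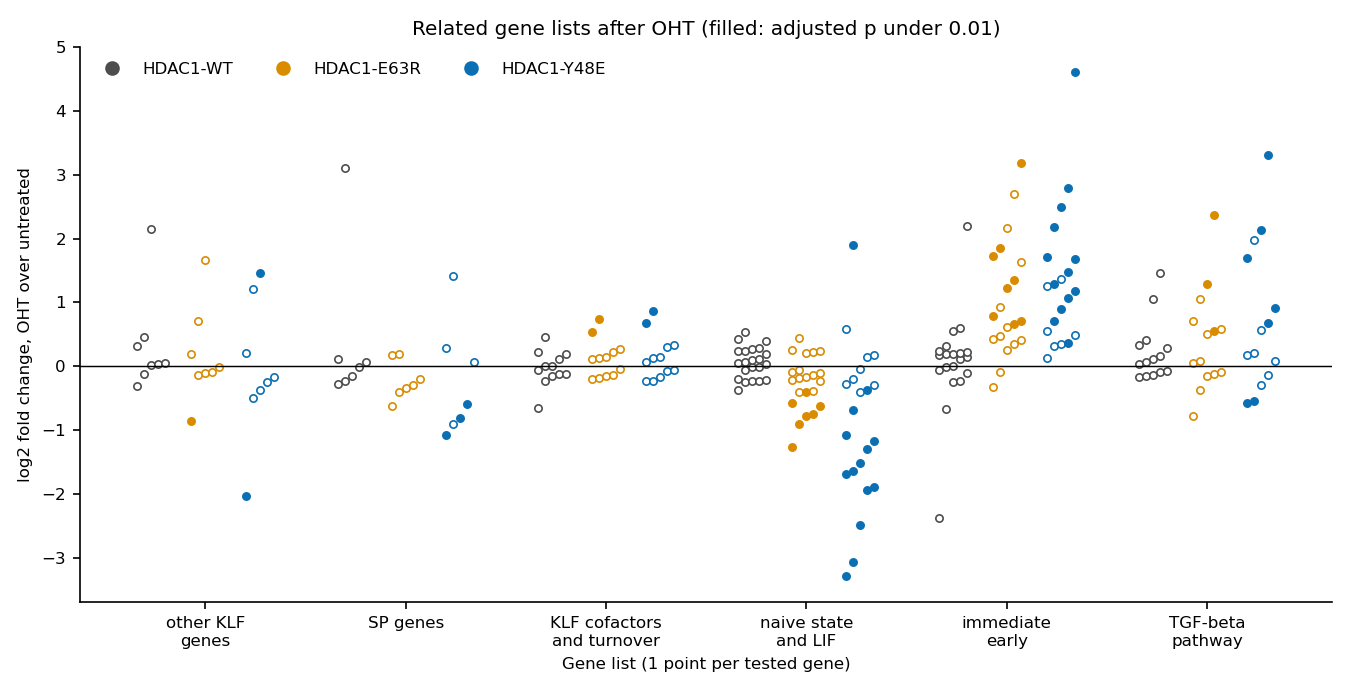
Log2 fold change after OHT (y axis) of every tested gene of 6 related lists (x axis), with 1 point per gene, colours for the 3 rescue lines and filled points where the edgeR adjusted p was under 0.01. In HDAC1-Y48E the naive state and LIF list has 13 filled points below 0 and 1 above, and the immediate early list has 13 above 0 and none below.

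Markers of cell types into which ESCs can differentiate are given beside these results, with 14.3% and 30.9% of all genes called in HDAC1-E63R and HDAC1-Y48E. Of 10 trophoblast markers 4 rose and 1 fell in HDAC1-E63R (4 rose and none fell without the third untreated library) and 4 rose in HDAC1-Y48E, where their sum went from 148.9 to 173.6 CPM in untreated to 195.1 to 220.3 CPM in treated libraries. Of 9 tested primitive endoderm markers 2 rose in HDAC1-E63R (1 without the third untreated library), and 1 rose and 1 fell in HDAC1-Y48E, with sums of 251.6 to 277.4 and 287.8 to 310 CPM. Of 8 tested formative and primed markers 3 rose in HDAC1-E63R, and 2 rose and 1 fell in HDAC1-Y48E, with sums of 174.8 to 201.4 and 442.5 to 496.4 CPM. Most of these sums was Dnmt3a (means of 96.93 and 339.1 CPM) and Dnmt3b (41.32 and 84.37 CPM). Against treated HDAC1-WT, 4 of these markers were higher and 3 lower in treated HDAC1-Y48E (31.8% of all genes called). In treated HDAC1-E63R 4 were higher and 2 lower (19.3% called). Before OHT, 3 were higher and 3 lower in each mutant (16.9% called in HDAC1-E63R and 12.2% in HDAC1-Y48E). Of 8 fibroblast markers 4 were tested, of which Col1a1 and Thy1 rose in both mutants, and the sum was 40.87 to 43.38 and 95.02 to 104.6 CPM in HDAC1-Y48E, with Postn and Lum at 0 in the untreated and Dcn and Lum at 0 in the treated group. In HDAC1-E63R the sums of untreated and treated libraries were 129.4 to 166.1 and 223.9 to 240.2 CPM for trophoblast, 80.64 to 159.9 and 218.2 to 230.1 CPM for primitive endoderm, 173.5 to 249.3 and 398.7 to 402.8 CPM for formative and primed, and 27.75 to 40.83 and 60.51 to 68.58 CPM for fibroblast markers. In HDAC1-WT the corresponding sums were 263.7 to 283.3 and 266.7 to 302.8 CPM, 231.9 to 243.2 and 210.9 to 256.7 CPM, 167.2 to 183.5 and 190.3 to 247.5 CPM, and 43.35 to 49.54 and 62.13 to 65.96 CPM. Trophoblast sums of treated mutant libraries thus lay below all those of HDAC1-WT, and the primitive endoderm sums of treated HDAC1-E63R libraries lay within the range of treated HDAC1-WT libraries. Counts of single genes ran otherwise than these sums. Against treated HDAC1-WT, 4 trophoblast markers were higher and 2 lower in treated HDAC1-E63R, and 5 higher and 2 lower in treated HDAC1-Y48E. Of the primitive endoderm markers, none was higher and 3 were lower in treated HDAC1-E63R. In treated HDAC1-Y48E 3 were higher and 2 lower (19.3% and 31.8% of all genes were called in the 2 mutants). Before OHT, 3 trophoblast markers were lower and 1 higher in HDAC1-E63R than in HDAC1-WT, and 4 primitive endoderm markers were lower and none higher, and in HDAC1-Y48E 3 and 2 were lower and 2 and 1 higher. None of these 4 lists had a gene that passed in HDAC1-WT (edgeR, with 1, 0, 3 and 1 at an unadjusted p under 0.05 and 0, 0, 0 and 1 by DESeq2). The part of such cells in the changes of Klf2, Klf3, Klf6 and Klf10 was not tested.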

How the data were processed

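RNA-seq counts of 18 libraries (6 groups of 3) were used. Per the labels and methods, total RNA was made into NEB Next Ultra libraries and sequenced in pairs. The authors' processing notes name HISAT2 2.1.0, SAMtools 1.9 and HTSeq with mm10, and the deposited values are raw read counts per gene. The annotation and use of strand are not given in the sources used here. The 5 entries that name no gene held 59.36% to 61.16% of each table's entries and were left out of library totals. Groups came from sample titles.

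Counts were tested with edgeR 4.0.16 in R 4.3.3 (quasi-likelihood, 1 mean per group, all 18 libraries, TMM scaling, filterByExpr), with Benjamini-Hochberg adjustment over 18791 genes. "Rose", "fell" and "passed" mean an adjusted p under 0.01, two-sided. Standard errors were derived from the log2 change and the F statistic. The scripts were tested on simulated data, in which 200 genes were given a log2 change of 2 in treated HDAC1-Y48E. Of these, edgeR recovered 68.5% for the HDAC1-Y48E response and 61.5% for its difference from HDAC1-WT, with 1 and 2 false calls. Alternatives were DESeq2 1.42.0, other scalings, no filter, a replicate block, only the libraries compared, thinning to the smallest total, an adjusted p of 0.05 and leaving out each library. Level per kb used the merged exon length in GENCODE M21. Gene correlations used log2 CPM with a prior count of 2.

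The members, gene lists and the rule for named genes (the 8 members, Hdac1 and Hdac2, up to 4 DEGs per list and mutant line with at least 1 CPM, every other KLF or SP DEG, and the 3 closest genes to each member) were chosen with earlier results of these data known. Some genes that this rule names are not reported here. Scaling to library totals, and list counts and correlations without the third untreated HDAC1-E63R library, were added after seeing the data.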

Additional observations from a re-analysis of the deposited data

Results flagged for a closer look

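Some responses to OHT differed between lines when the difference itself was tested (edgeR, adjusted p under 0.01). The response of Klf2 was lower than in HDAC1-WT by a log2 difference of -1.285 in HDAC1-E63R and -2.647 in HDAC1-Y48E, and its HDAC1-Y48E response was lower than its HDAC1-E63R response by -1.363. In HDAC1-Y48E against HDAC1-WT, Klf3 differed by -0.6189, Klf10 by -0.7942 and Klf6 by 1.285. In each of these 6 cases the treated libraries of the mutant line that moved more did not overlap with its untreated libraries. The share of all tested genes without such overlap is not given here, so this is not read as a result about these genes. The cases were picked by tests on the same values, so this lack of overlap adds no separate support. With 3 libraries per group, no test for a single outlying library was made.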

How the results depend on the processing

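Of 1184 values of single members recomputed under an alternative, 1104 kept their direction and their side of the limit, 27 lost the call, 24 gained it and 29 changed sign, none of them for a called value. Fits to only the libraries compared, which estimate the spread from fewer samples, moved most counts. Members passed fell to 0 for the HDAC1-E63R response and for HDAC1-E63R minus HDAC1-WT, and rose to 1 for HDAC1-WT. All genes passed became 453 in HDAC1-E63R, 117 in HDAC1-WT, 165, 220 and 4164 for the differences HDAC1-E63R minus HDAC1-WT, HDAC1-Y48E minus HDAC1-E63R and HDAC1-Y48E minus HDAC1-WT, 634 and 3817 for untreated HDAC1-E63R and HDAC1-Y48E against HDAC1-WT, and 5697 for OHT-treated HDAC1-E63R against HDAC1-WT. With DESeq2, members passed were 1 in HDAC1-WT, 2 for HDAC1-E63R minus HDAC1-WT, 3 for HDAC1-Y48E minus HDAC1-E63R and 2 for untreated HDAC1-E63R, all genes passed were 73, 866 and 732 in the first 3 of these, and members passed in HDAC1-E63R were 6 in place of 4. Without a filter on low counts they were 83, 851 and 684, with 2 members for untreated HDAC1-E63R. At an adjusted p of 0.05, members passed were 2, 4 and 2 for HDAC1-E63R minus HDAC1-WT, HDAC1-Y48E minus HDAC1-E63R and untreated HDAC1-E63R, and all genes passed were 45 and 4727 in HDAC1-WT and HDAC1-E63R, 1086, 996 and 4165 for the differences in the order above, 5139 and 3920 for untreated HDAC1-E63R and HDAC1-Y48E, and 5460 for OHT-treated HDAC1-E63R. The cause was not tested.

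Leaving out 1 library at a time gave 3 to 6 members in HDAC1-E63R, 1 to 4 for HDAC1-E63R minus HDAC1-WT and for HDAC1-Y48E minus HDAC1-E63R, 1 to 2 for untreated HDAC1-E63R, 3 to 5 and 5 to 7 for OHT-treated HDAC1-E63R and HDAC1-Y48E against HDAC1-WT, and 0, 4, 4 and 1 throughout for HDAC1-WT, HDAC1-Y48E, HDAC1-Y48E minus HDAC1-WT and untreated HDAC1-Y48E. All genes passed ranged from 3 to 9 in HDAC1-WT, 1658 to 3604 in HDAC1-E63R, 254 to 1277 for HDAC1-E63R minus HDAC1-WT and 234 to 1453 for HDAC1-Y48E minus HDAC1-E63R, with the highest value of each of the last 3 reached without untreated HDAC1-E63R replicate 3.

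Signs turned for uncalled values near 0. Scaling to library totals raised the median change of all genes to 0.23 in HDAC1-E63R and 0.25 in HDAC1-Y48E and the share of higher genes among those passed from 52.3% to 79.9% and from 52.4% to 70%. Klf4 in HDAC1-Y48E became 0.11 and Klf9 in untreated HDAC1-E63R -0.0138. With thinning, Klf9 in HDAC1-E63R minus HDAC1-WT was -0.0104 and Klf5 in OHT-treated HDAC1-E63R -0.00175. With 1 library left out, Klf9 ranged from -0.128 to 0.115 for HDAC1-E63R minus HDAC1-WT, -0.0825 to 0.157 for HDAC1-Y48E minus HDAC1-E63R, -0.0241 to 0.0920 for HDAC1-Y48E minus HDAC1-WT, -0.0151 to 0.226 in HDAC1-E63R and -0.0379 to 0.206 in untreated HDAC1-E63R. Klf5 ranged from -0.0846 to 0.180 in OHT-treated HDAC1-E63R and -0.0337 to 0.0682 in HDAC1-Y48E, and Klf13 from -0.0663 to 0.189 for HDAC1-Y48E minus HDAC1-E63R and -0.223 to 0.0387 in untreated HDAC1-E63R. Klf6 ranged from -0.206 to 0.0186 in untreated HDAC1-E63R, and Klf10 and Klf3 from -0.063 to 0.0929 and -0.0264 to 0.0922 in HDAC1-WT.

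Replicate numbers did not pair the samples: deviations of same-numbered libraries correlated between -0.02 and 0.04 over 9 pairs. A fit with the replicate number as a block changed no call of a member, and left 6 genes passed in HDAC1-WT in place of 11. At these depths the members' counts were far above the floor of 3 counts, and thinning to the smallest library lost 1 call of a member, Klf6 in HDAC1-E63R (adjusted p = 0.0189).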
